A study of Rattus norvegicus with 4 samples.

Results

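The genes described here encode the oxidizing, reducing and hydrolyzing enzymes of the liver that are not cytochromes P450. They were picked by gene symbol, and those described also by a minimum level: the aldehyde dehydrogenases (Aldh), alcohol dehydrogenases (Adh), aldo-keto reductases (Akr), flavin-containing monooxygenases (Fmo), aldehyde oxidases (Aox), carbonyl reductases (Cbr), carboxylesterases (Ces) and epoxide hydrolases (Ephx). Of 16999 named genes in the tables, 73 of these 8 families are reported, and the 54 whose mean over the 4 libraries reached 1 TPM are described. The other 19 were under that level, and Ces5a, Ephx3, Ephx4 and Fmo9 were listed at 0 in every library. Just inside the minimum stood Fmo2 with a mean of 1.20 TPM, and just outside it stood Akr1b8 with a mean of 0.920 TPM. TPM is corrected for length, so levels of different genes may be set side by side. The deposited values are not true shares of all transcripts, since named genes are listed beside loci assembled from the same reads.

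The series compared 2 inhalational anesthetics, sevoflurane and desflurane, in the liver of wild type rats, with 1 RNA-seq library for each of 4 groups. Rats of the 0 h groups inhaled 4.5% sevoflurane or 6% desflurane until they lost consciousness and were decapitated then, so the controls had also met the agent. Rats of the 6 h groups were kept under the same agent for 6 h. Control and anesthetized livers were taken 6 h apart on the clock, so anesthesia and time of day cannot be told apart in any 6 h against 0 h comparison. The labels used here name no strain, sex or age, and fewer expressing cells cannot be told apart from less RNA per cell.

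These enzymes carry out the first chemical step on many drugs, food constituents and hormones in the liver. Adh enzymes oxidize alcohols to aldehydes, Aldh enzymes oxidize aldehydes to acids, and Akr and Cbr enzymes reduce aldehydes and ketones, many of them steroids or bile acid precursors. Fmo enzymes add oxygen to nitrogen and sulfur atoms, Aox enzymes oxidize heterocycles and aldehydes, Ces enzymes cleave esters and Ephx enzymes open epoxides. The hepatocyte is the main site of nearly all of them.

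The promoters of the alcohol dehydrogenase and carboxylesterase genes on which the results turn are shown first. Adh1 and Adh7 are neighbors and were both lower at 6 h, while Ces2c and Ces2e, both higher, lie on different chromosomes. RefSeq promoter sequences of build GRCr8 were found for 46 of the 54 genes, 1 of them (Adh1, listed there as Adh1c) through an older symbol. Each line gives the 250 bases before the annotated start, 5′ to 3′ on the strand of the gene, and capitals mark a D-box, the site class of the clock output factors Dbp and Tef. Adh1 lies at chr2:229470453-229470702 and Adh7 at chr2:229421875-229422124, both on the plus strand, and they stand for the members lower at 6 h.
Adh1: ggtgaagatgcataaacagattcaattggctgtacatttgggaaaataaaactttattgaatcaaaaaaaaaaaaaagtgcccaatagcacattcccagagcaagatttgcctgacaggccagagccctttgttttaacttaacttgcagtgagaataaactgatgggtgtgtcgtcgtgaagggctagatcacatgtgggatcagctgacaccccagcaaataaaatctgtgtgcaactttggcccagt
Adh7: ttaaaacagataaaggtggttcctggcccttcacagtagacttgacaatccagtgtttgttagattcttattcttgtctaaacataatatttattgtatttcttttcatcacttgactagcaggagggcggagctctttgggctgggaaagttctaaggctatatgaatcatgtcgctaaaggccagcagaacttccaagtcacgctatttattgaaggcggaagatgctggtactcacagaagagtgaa
Ces2c at chr1:270376951-270377200 and Ces2e at chr19:163649-163898, plus strand, stand for the members higher at 6 h.
Ces2c: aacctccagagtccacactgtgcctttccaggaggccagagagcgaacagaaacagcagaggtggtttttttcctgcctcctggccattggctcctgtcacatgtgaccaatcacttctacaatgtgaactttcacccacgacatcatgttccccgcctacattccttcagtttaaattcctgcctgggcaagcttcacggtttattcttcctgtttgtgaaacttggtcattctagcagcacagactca
Ces2e: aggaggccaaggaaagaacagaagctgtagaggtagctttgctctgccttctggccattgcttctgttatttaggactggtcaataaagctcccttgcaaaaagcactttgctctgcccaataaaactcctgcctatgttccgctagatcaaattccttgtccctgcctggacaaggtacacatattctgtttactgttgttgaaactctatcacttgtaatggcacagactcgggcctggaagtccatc
Ces1d at chr19:30046244-30046493, plus strand, stands for the abundant esterases that were past no rule of size.
Ces1d: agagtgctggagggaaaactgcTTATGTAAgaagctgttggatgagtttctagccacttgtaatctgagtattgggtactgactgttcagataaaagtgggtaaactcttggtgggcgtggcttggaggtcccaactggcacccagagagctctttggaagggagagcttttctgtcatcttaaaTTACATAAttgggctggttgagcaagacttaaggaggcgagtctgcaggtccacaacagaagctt

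Several motifs were searched on both strands of the whole 300-base windows, of which 250 bases lie before the start and 50 after it. The D-box (TTANGTAA) was present in 3 of the 46 promoters, those of Ces1c, Ces1d and Ces1e, and in 2.24% of all 33469 promoters. Ces1d held it at 2 places, as the capitals show. The core of the antioxidant response element (TGACNNNGC) was present in 4 of the 46 (Akr1c15, Aldh16a1, Aldh9a1 and Ces2g) and in 12.1% of all promoters. AGGTCA, the hexamer that nuclear receptors bind, was present in 7 of the 46 and in 16.2% of all promoters, and the E-box (CACGTG) in 0 of the 46 and 6.42% of all. The 4 printed promoters of Adh1, Adh7, Ces2c and Ces2e held none of the 4 motifs. Aligned end to end, the 250 bases of Ces2c and Ces2e were 61.2% identical and those of Adh1 and Adh7 were 49.2% identical. The median over all 1035 pairs of these promoters was 49.2%. The likeness was not particular to the Ces2 genes that were higher at 6 h. The promoter of Ces2j, a gene past no rule of size, was 65.6% identical to that of Ces2c and 62.8% to that of Ces2e.

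The libraries were compared first as a whole. The aligned bases per library, back-calculated from the deposited coverage, lay between 3.50 and 5.57 Gb, with the lowest in the sevoflurane 0 h library, and a TPM of 2 stood for a mean depth of 4.72 to 7.28 reads per base. All 10 hepatocyte markers were expressed, with a summed level of 103506 to 115590 TPM, and the 8 pancreatic acinar markers summed to between 24.6 and 30.3 TPM, nearly all of it Cela1, with Prss1, Ctrb1 and Pnlip listed at 0. Other marker levels moved with time: the summed red blood cell markers were 632 and 991 TPM at 0 h and 1671 and 1864 TPM at 6 h, and the summed periportal hepatocyte markers were 3331 and 3591 TPM at 0 h and 8056 and 7297 TPM at 6 h, in the order sevoflurane and desflurane. The 8 pericentral markers summed to 911 and 931 TPM at 0 h and to 1649 and 1928 TPM at 6 h. Most of that rise was Cyp2e1, at 543 and 1015 TPM with sevoflurane and at 610 and 1364 TPM with desflurane. Glul was at 152 and 127 TPM and at 141 and 139 TPM. Of the 7 pericentral markers with a mean of at least 1 TPM, 4 rose with sevoflurane and 5 with desflurane. Of the 8 periportal ones 7 and 6 rose. The 9 Kupffer cell markers summed to 524 and 433 TPM with sevoflurane and to 489 and 564 TPM with desflurane. The 5 endothelial markers found summed to between 82.5 and 101 TPM over the 4 libraries. The 6 lymphocyte markers were lower at 6 h, with sums of 11.9 and 6.46 TPM with sevoflurane and of 10.7 and 7.33 TPM with desflurane. The 7 stellate cell markers summed to 121 and 131 TPM at 0 h and to 177 and 184 TPM at 6 h. Most of the stellate rise was Col3a1, at 84.3 and 135 TPM with sevoflurane and at 94.6 and 146 TPM with desflurane. The 4 cholangiocyte markers found summed to between 6.90 and 8.61 TPM. Their part in the results below was not tested.

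Taken as 1 pool, the 73 genes held a steady share of the TPM of the named genes. Their TPM summed to 6995 at 0 h and 6829 at 6 h with sevoflurane, and to 7554 at 0 h and 7392 at 6 h with desflurane. The pool was 0.876% to 0.958% of the TPM of all named genes. Its families went different ways. The Adh sum was 523 TPM at 0 h and 187 TPM at 6 h with sevoflurane, and 327 TPM at 0 h and 206 TPM at 6 h with desflurane. The sum of the 5 Fmo genes was 47.0 TPM at 0 h and 43.3 TPM at 6 h with sevoflurane, and 53.6 TPM at 0 h and 74.6 TPM at 6 h with desflurane. The Akr, Aldh, Ces and Ephx families changed far less, with 6 h sums between 0.924 and 1.10 times the 0 h sums. With sevoflurane the Aox and Cbr sums at 6 h were 1.04 and 0.887 times those at 0 h. With desflurane they were 0.917 and 1.15 times. The Adh sum thus fell furthest with both agents, but most of it was Adh1, a single gene. Adh1 was at 451 and 103 TPM with sevoflurane and at 254 and 136 TPM with desflurane. Adh5 was higher at 6 h with both agents.

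**Figure D1:**
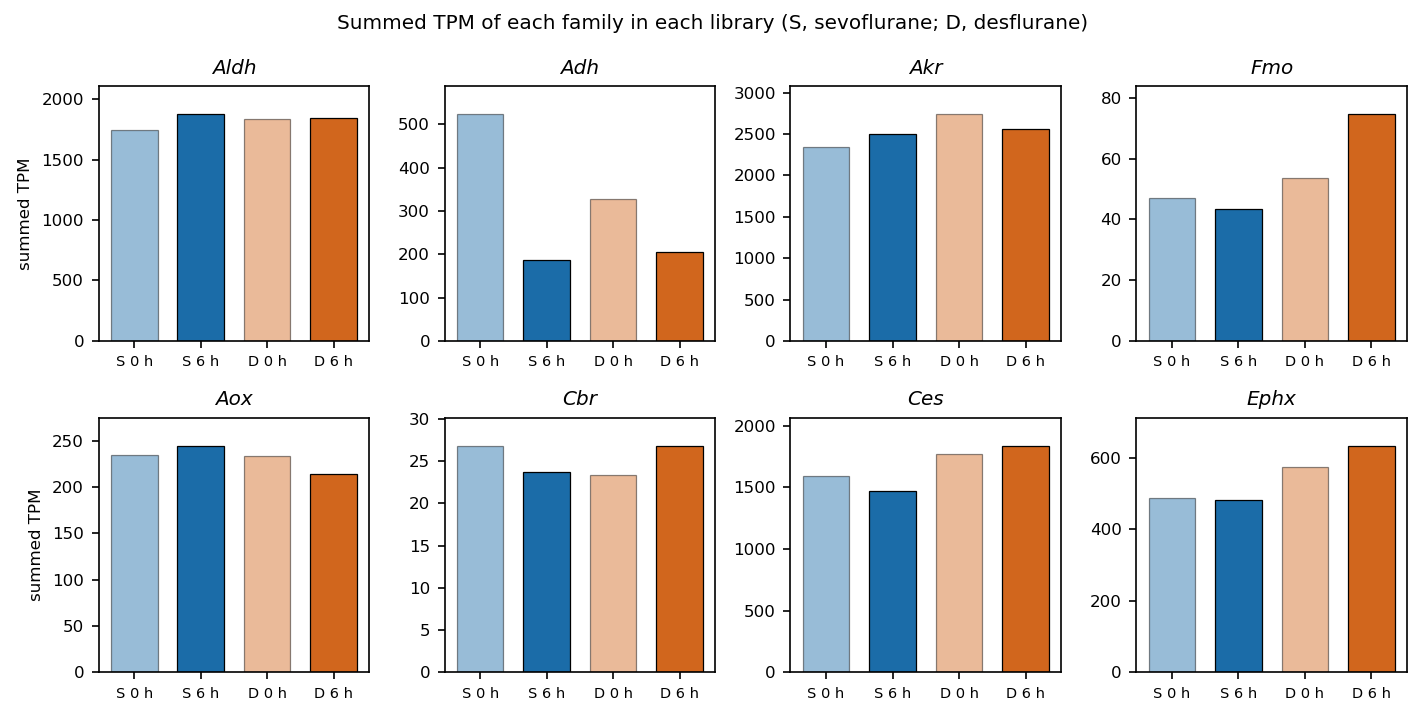
Summed TPM (vertical axes, from 0, one scale per panel) of each of the 8 enzyme families in each library (bars; pale, 0 h; full color, 6 h; 1 library per bar, no error bars). The Adh bars stand at 523 and 327 TPM for 0 h and at 187 and 206 TPM for 6 h, while the tall Aldh, Akr and Ces bars stay near their 0 h height.

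With 1 library per group there is no replicate error within an agent, so a rule of size stood in for a test: the larger of the 2 TPM values had to exceed 2, and so did their ratio. By this rule 3 of 53 members were called higher and 5 of 53 lower at 6 h of sevoflurane, where 5.04% of all genes tested were higher and 3.71% lower. With desflurane 3 of 54 members were higher and 2 of 54 lower, where 4.10% of all genes were higher and 5.55% lower. After median-of-ratios scaling of the libraries the desflurane calls were 5 higher and 1 lower, with Ces2e and Cbr1 added and Akr1c2 lost. In all 11 of the 54 members were called with either agent, 43 with neither, and 0 were called in opposite directions. These 3 counts were not made over all genes, so they cannot be set against the series. Between the 2 controls 0 of 53 members were called in either direction, against 2.76% of all genes. Between the 2 livers at 6 h, 4 of 53 members were called, all higher with desflurane, against 3.99% of all genes. The members' shares are counts of single libraries and are a description.

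The rises and falls of the members balanced, with 27 of the 54 changes positive and 27 negative under each agent. The median log2 change, on the log2(TPM + 1) scale that is used for all log2 changes here, was -1.24e-04 with sevoflurane and 0.01 with desflurane over the 54 members, and 0.05 and -0.10 over the 9201 genes of the series that reached the same mean. The members whose 4 values lay within a ratio of 1.5 numbered 28, and 40 lay within a ratio of 2. This was not counted over all genes, so it describes the members alone. The change of each member with each agent is plotted by family below, where most points crowd around 0 and a few members of the Adh, Akr and Ces families lie far out.

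**Figure D2:**
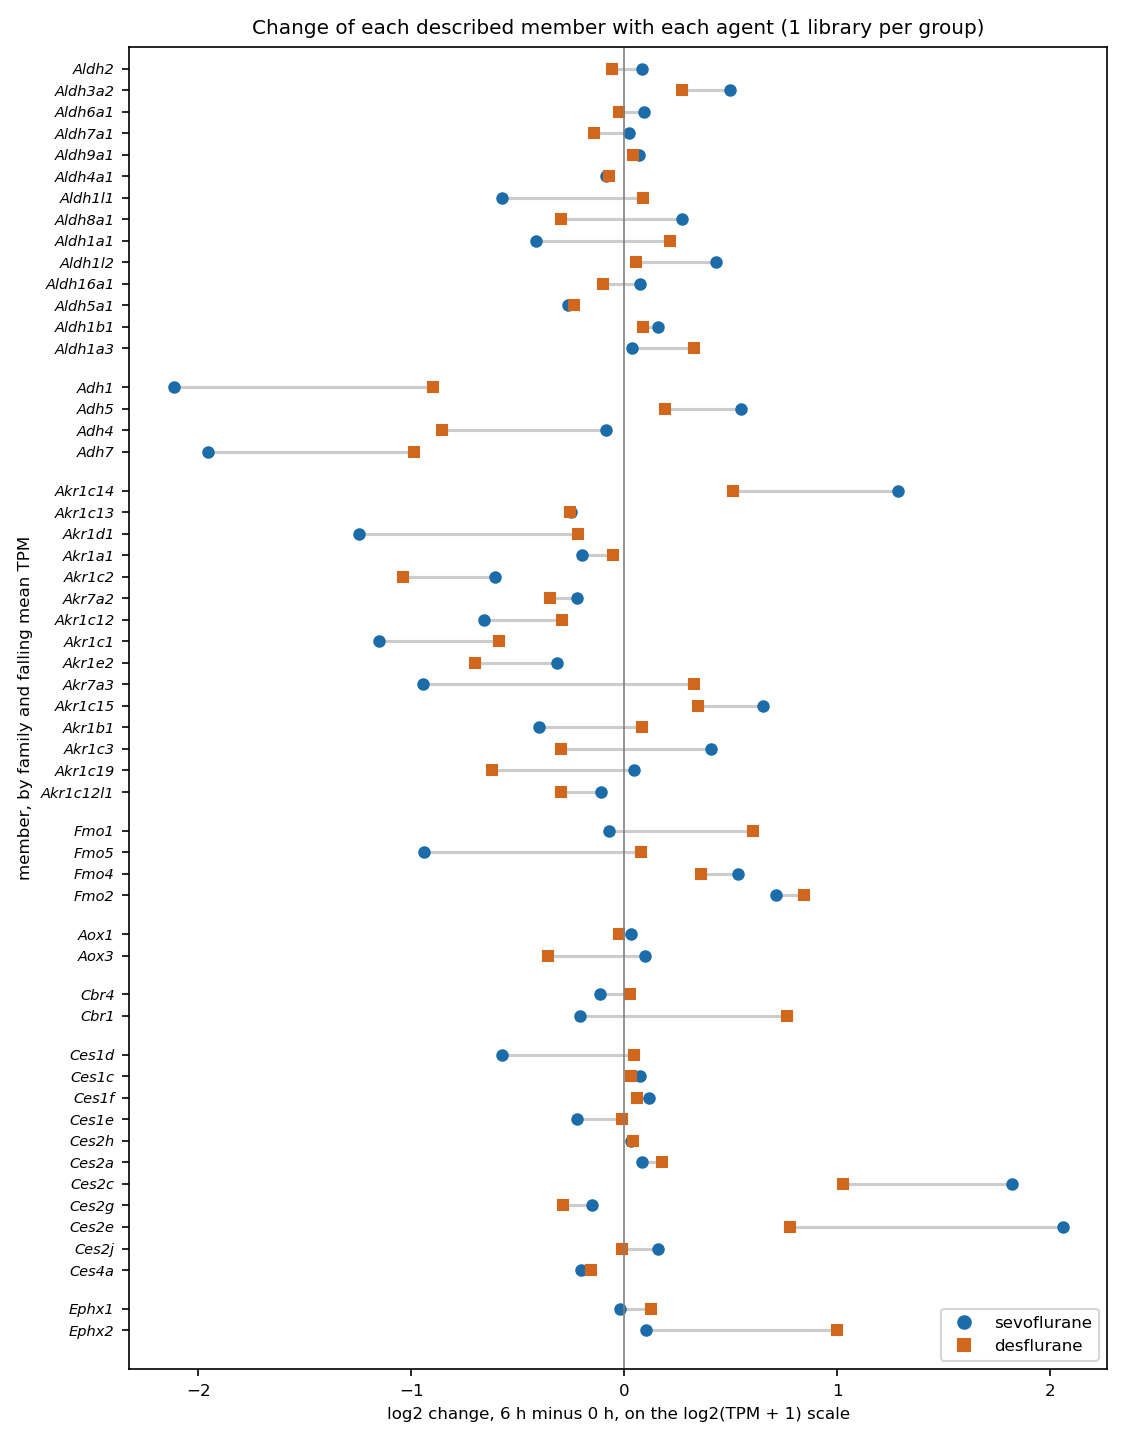
Log2 change from 0 h to 6 h on the log2(TPM + 1) scale (horizontal axis) of each of the 54 described members (rows, by family and falling mean TPM) with sevoflurane (blue circles) and desflurane (orange squares), each point a difference of 2 libraries. Aldh, Aox and most Ces members sit close to 0, Ces2c and Ces2e lie to the right with both agents, and Adh1 and Adh7 lie to the left with both.

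The only test with residual error took the change from 0 h to 6 h common to both agents, with the agent as a block, in limma over the 8024 genes whose mean TPM reached 2. It rests on 1 residual degree of freedom per gene plus the spread borrowed from the other genes. After Benjamini-Hochberg adjustment 8 of the 52 members in the fit were called, where 8.62% of all genes were called. An unadjusted p under 0.05 was reached by 15 of the 52 and by 1599 of all 8024 genes. The 8 were Ces2c, Ces2e and Akr1c14, higher at 6 h, and Adh1, Adh7, Akr1c1, Akr1c2 and Akr1d1, lower at 6 h. Without the sevoflurane 0 h library, the shallowest, 1 member was called, Akr1c2. Adh1 and Adh7 were called in every setting but that one. Counted without a test, 12 of the 54 members had both 6 h values above both 0 h values and 14 had both below, against 22.8% and 27.9% of all genes. A gap of more than 1.5 times between the groups left 3 of the 12 (Ces2c, Ces2e and Fmo2) and 2 of the 14 (Adh1 and Adh7). Fmo2 reached the mean of 1 TPM only through its 6 h values. No share over all genes was taken at this gap, so these counts cannot be set against the series.

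**Figure D3:**
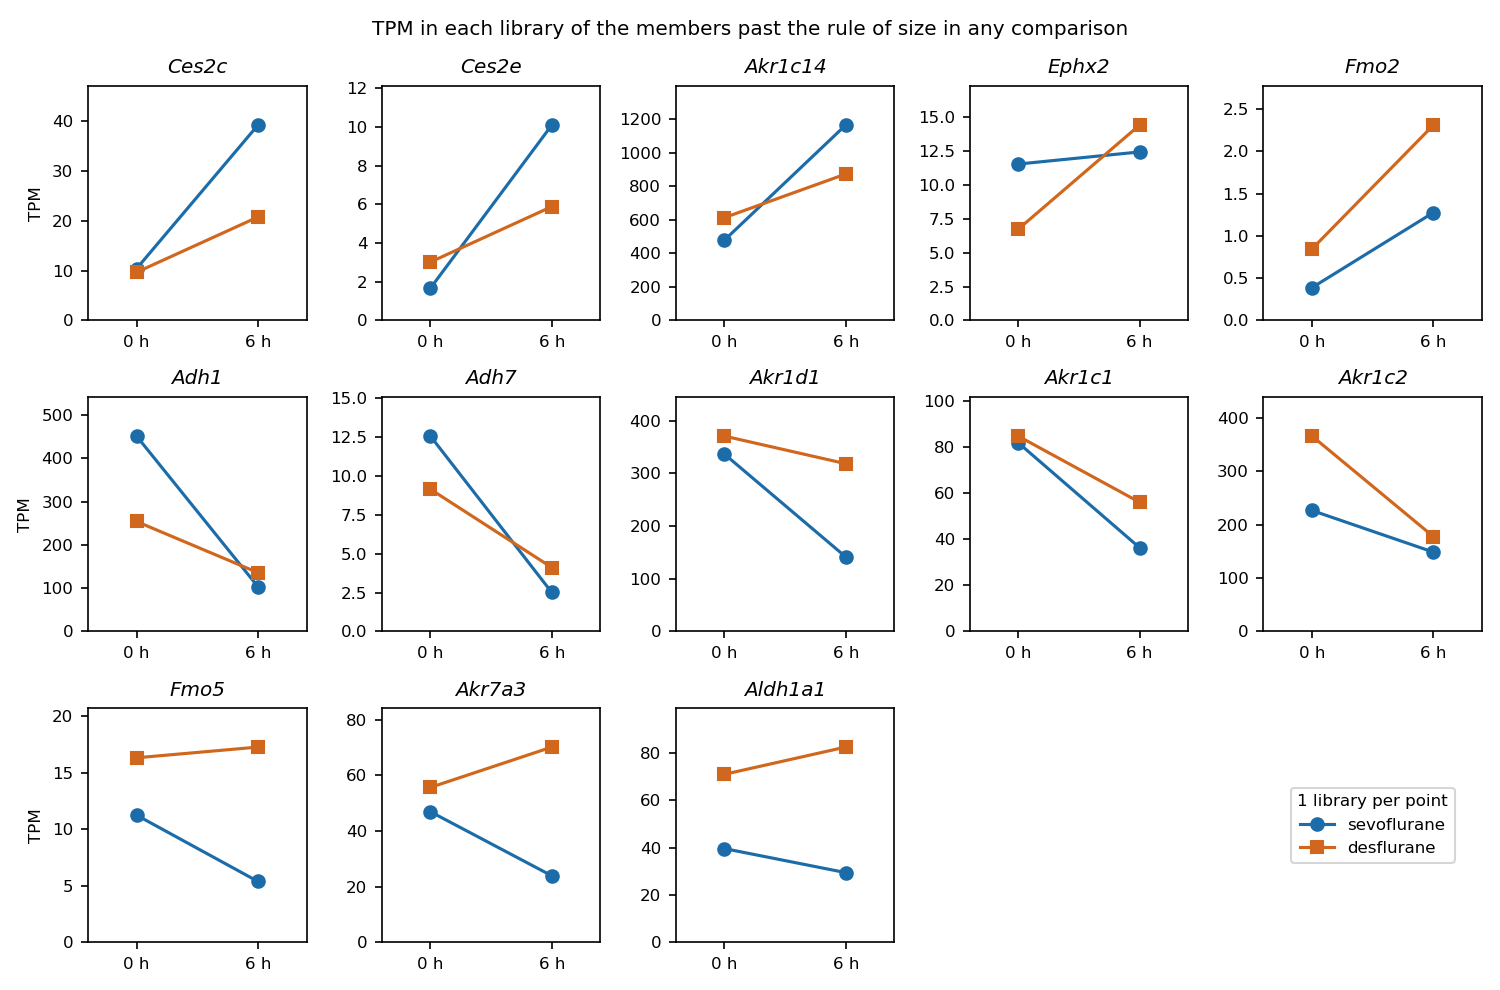
TPM (vertical axes, from 0, one scale per panel) at 0 h and 6 h of sevoflurane (blue circles) and desflurane (orange squares) for the 13 members past the rule of size in any comparison, with 1 library per point and no error bars. In Ces2c, Ces2e and Akr1c14 both 6 h points stand above both 0 h points, in Adh1, Adh7, Akr1d1, Akr1c1 and Akr1c2 both stand below, and in Fmo5, Akr7a3 and Aldh1a1 the 6 h points part by agent.

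Among the enzymes that oxidize with flavin, Fmo4, Fmo1 and Fmo2 lie in this order within 89.9 kb of chromosome 13 (build rn6, as in all gene positions that follow). With desflurane all 3 had a positive log2 change, and with sevoflurane 2 of the 3 had one. Fmo2, the form best known from lung, was at 0.388 and 1.28 TPM with sevoflurane and at 0.846 and 2.31 TPM with desflurane. It was called higher with desflurane and was under the minimum of the rule with sevoflurane, and its lowest mean depth was 0.915 reads per base, so its ratio is of few reads. Fmo1, a form of broad substrate range, was at 30.2 and 28.7 TPM with sevoflurane and at 31.3 and 48.1 TPM with desflurane, past the rule with neither. Fmo4 was at 5.18 and 7.94 TPM with sevoflurane and at 5.13 and 6.86 TPM with desflurane. Both 6 h values were above both 0 h values, with folds of 1.53 and 1.34 that passed no rule. The locus assembled from the reads at Fmo4 gave 2.23-fold with sevoflurane, which would pass the rule.

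Fmo5 lies apart from those 3, on chromosome 2 (chr2:199796870-199823927, plus strand), and codes for a form that inserts oxygen beside ketones. Its TPM was 11.2 and 5.38 at 0 h and 6 h of sevoflurane, and 16.3 and 17.3 at 0 h and 6 h of desflurane. The sevoflurane 6 h liver was thus the low one of the 4. Fmo5 was 2.09-fold lower with sevoflurane, 1.06-fold higher with desflurane and 3.21-fold higher in the desflurane than in the sevoflurane liver at 6 h. The common change was -0.43 ± 0.247 (SE, limma, adjusted p = 0.380).

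The 4 alcohol dehydrogenases described lie within 238.8 kb of chromosome 2, in the order Adh7, Adh1, Adh4 and Adh5, all on the plus strand. Adh1 (chr2:243550655-243562243), the class that oxidizes ethanol, was at 451 TPM at 0 h and 103 TPM at 6 h with sevoflurane, and at 254 and 136 TPM with desflurane. Both 6 h values were below both controls, and the controls themselves differed by 1.78-fold. Adh1 was 4.37-fold lower with sevoflurane and 1.87-fold lower with desflurane, the latter short of the rule. The common change was -1.51 ± 0.215 (SE, limma, adjusted p = 6.63e-04). With the 2 controls exchanged, Adh1 was 2.46-fold lower for sevoflurane and 3.32-fold lower for desflurane.

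Adh7 (chr2:243502073-243516533), a class active on retinol, was at 12.6 and 2.51 TPM with sevoflurane and at 9.16 and 4.11 TPM with desflurane. It was lower past the rule with both agents, 5.02-fold and 2.23-fold, and the 2 groups of values did not overlap. The common change was -1.47 ± 0.262 (SE, limma, adjusted p = 0.00333). Adh4 was at 12.8 and 12.0 TPM with sevoflurane and at 12.2 and 6.27 TPM with desflurane, so that the desflurane 6 h liver alone was low, 1.94-fold below its control and short of the rule (2.05-fold below the sevoflurane control, past it). Adh5, which handles the glutathione adduct of formaldehyde, went the other way, with 46.9 and 69.1 TPM for sevoflurane and 52.0 and 59.6 TPM for desflurane. Its 1.47-fold and 1.15-fold differences were past no rule (common change 0.37 ± 0.154, SE, limma, adjusted p = 0.197). Adh6 and Adh6a were under the minimum, with no value above 0.104 TPM.

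**Figure D4:**
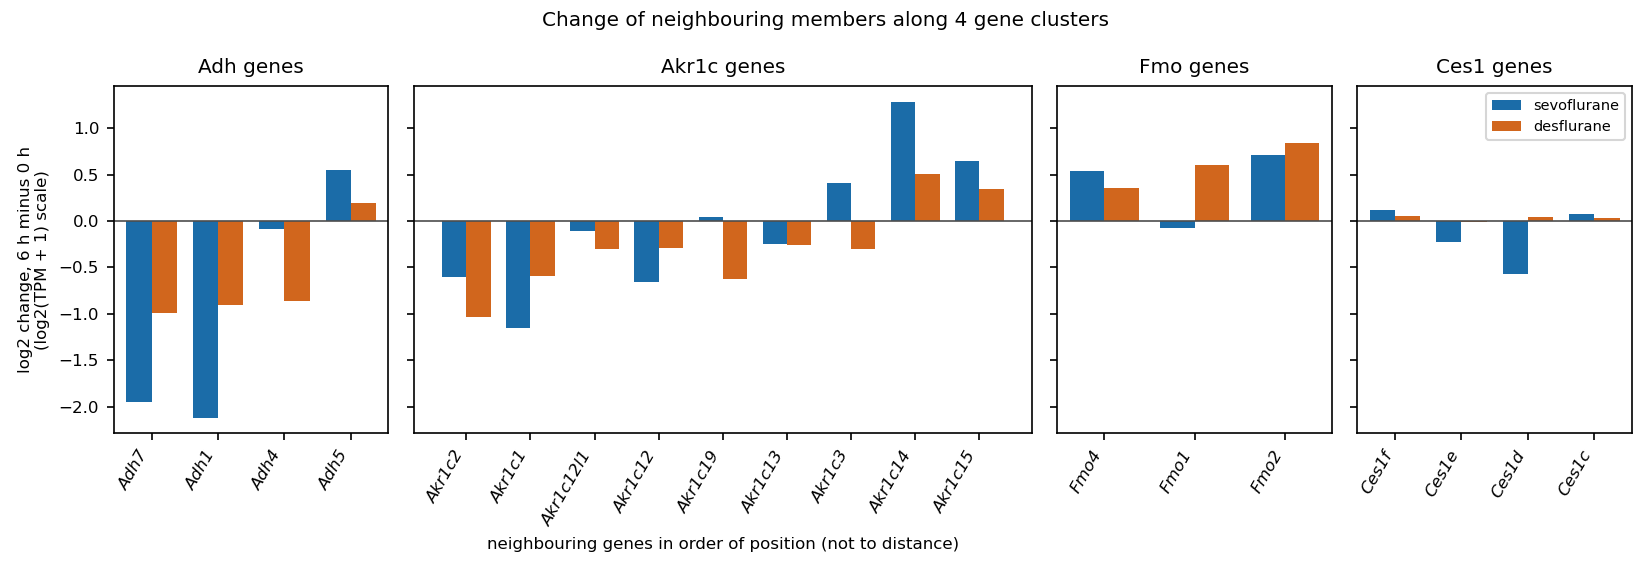
Log2 change from 0 h to 6 h on the log2(TPM + 1) scale (vertical axis) with sevoflurane (blue bars) and desflurane (orange bars) of neighboring genes in their order along 4 clusters, each bar a difference of 2 libraries. Adh7 and Adh1 point down and Adh5 points up. Akr1c14 and Akr1c15 point up at the end of a row whose first 2 genes point down. The Fmo bars point up but for Fmo1 with sevoflurane. Of the Ces1 bars, that of Ces1d with sevoflurane points down, at -0.58, and the others are short.

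Of the 15 aldo-keto reductases described, 9 had both 6 h values below both controls and 2 had both above, against 27.9% and 22.8% of all genes. A row of 9 Akr1c genes spans 473.7 kb of chromosome 17, and the change was negative for 5 of the 9 under sevoflurane and for 7 of the 9 under desflurane, where it was negative for 4091 and 5680 of the 9201 genes of the series.

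Akr1c14 (chr17:69806095-69827125, minus strand), the 3α-hydroxysteroid dehydrogenase of rat liver, was the most abundant of all 54 members with a mean of 782 TPM. It was at 478 and 1164 TPM with sevoflurane and at 612 and 872 TPM with desflurane. Both 6 h livers were above both controls, by 2.44-fold and 1.42-fold, the latter short of the rule. Against the desflurane control the sevoflurane 6 h liver was 1.90-fold higher, which ends that call. The common change was 0.90 ± 0.158 (SE, limma, adjusted p = 0.00303). Its neighbor Akr1c15 was at 13.7 and 22.0 TPM with sevoflurane and at 14.3 and 18.4 TPM with desflurane, higher in both 6 h livers but past no rule; it was singled out after its values were seen. At the other end of the row, Akr1c2 (chr17:69388345-69435148, minus strand) was at 226 and 148 TPM with sevoflurane and at 366 and 177 TPM with desflurane. It was 2.06-fold lower with desflurane, a call that is lost against the other control or after rescaling of the libraries. With sevoflurane it was 1.53-fold lower, and 2.46-fold lower with exchanged controls, and the common change was -0.82 ± 0.137 (SE, limma, adjusted p = 0.00209). The next gene, Akr1c1 (chr17:69441253-69460287, minus strand), was at 81.8 and 36.3 TPM with sevoflurane and at 84.7 and 56.0 TPM with desflurane, with a common change of -0.87 ± 0.165 (SE, limma, adjusted p = 0.00511). It was 2.25-fold lower with sevoflurane and 1.51-fold lower with desflurane. Akr1c13, the second most abundant Akr gene, was at 640 and 538 TPM with sevoflurane and at 693 and 581 TPM with desflurane, a decrease of 1.19-fold with each agent that passed no rule.

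Outside that row, Akr1d1 (chr4:65110706-65143930, plus strand), the steroid 5β-reductase of bile acid synthesis, was at 337 and 142 TPM with sevoflurane and at 371 and 319 TPM with desflurane. The sevoflurane 6 h liver was low, 2.38-fold below its control, and the desflurane 6 h liver was 1.16-fold below its own. Its common change was -0.73 ± 0.191 (SE, limma, adjusted p = 0.0319), a call made in no other setting than without the desflurane 6 h library. Akr7a3, the aflatoxin aldehyde reductase, was at 47.0 and 23.9 TPM with sevoflurane and at 55.7 and 70.2 TPM with desflurane, so its 6 h values parted on both sides of the controls. It was 1.96-fold lower and 1.26-fold higher, short of the rule each time, but the sevoflurane fold passed it after rescaling of the libraries and, at 2.33-fold lower, with exchanged controls. It was 2.93-fold higher in the desflurane than in the sevoflurane liver at 6 h. The other 9 Akr genes had means between 1.93 and 244 TPM and their folds ran from 0.628 to 1.61 under sevoflurane and from 0.594 to 1.29 under desflurane.

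The aldehyde dehydrogenases gave no call over time. With either agent 0 of the 14 described passed the rule, where 5.04% and 4.10% of all genes were higher and 3.71% and 5.55% lower, and 0 of the 14 were called in the common test (limma), with 1 of them at an unadjusted p under 0.05. In 11 of the 14 the 6 h values were neither both above nor both below the controls, as for 4536 of the 9201 genes of the series. Aldh2, the mitochondrial enzyme that clears acetaldehyde, was at 466 and 493 TPM with sevoflurane and at 524 and 503 TPM with desflurane, a spread of 1.12-fold over all 4 livers. Aldh3a2, the fatty aldehyde dehydrogenase, was at 267 and 377 TPM with sevoflurane and at 257 and 309 TPM with desflurane (common change 0.38 ± 0.123, SE, limma, adjusted p = 0.0851). Aldh6a1, of valine breakdown, lay between 218 and 233 TPM. Set beside Adh1, whose product is the substrate of Aldh2, the 4 Aldh2 values lay closer to each other than the 2 Adh1 controls did.

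Aldh1a1, which makes retinoic acid, was the member of its family that passed the rule between agents. It was at 39.6 and 29.5 TPM with sevoflurane and at 71.0 and 82.5 TPM with desflurane. Both desflurane livers were above both sevoflurane livers, already at 0 h by 1.79-fold, and the 2.80-fold difference at 6 h passed the rule. It was 1.34-fold lower at 6 h with sevoflurane and 1.16-fold higher with desflurane, and with exchanged controls 2.41-fold lower and 2.08-fold higher, past the rule. The other 10 Aldh genes had means from 5.79 to 209 TPM and folds between 0.669 and 1.36 (sevoflurane) and between 0.810 and 1.30 (desflurane). The 5 Aldh genes under the minimum, Aldh18a1, Aldh1a2, Aldh1a7, Aldh3a1 and Aldh3b1, had no value above 0.866 TPM.

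The aldehyde oxidases and carbonyl reductases gave 0 calls by the rule with either agent. Aox1 was at 140 and 143 TPM with sevoflurane and at 159 and 156 TPM with desflurane. Aox3, its neighbor on chromosome 9, was at 94.1 and 101 TPM with sevoflurane and at 74.8 and 58.1 TPM with desflurane. The Aox3 values of the agents thus parted further than those of Aox1, with the 6 h values 1.73-fold apart. Cbr4, a mitochondrial reductase, lay between 18.8 and 21.1 TPM. Cbr1, the main cytosolic carbonyl reductase, was at 4.89 and 4.09 TPM with sevoflurane and at 3.89 and 7.31 TPM with desflurane, 1.88-fold higher with desflurane and short of the rule. The Cbr1 value sums rows that the tables divide differently in the sevoflurane 0 h library, which makes its ratios uncertain.

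Among the 11 esterases described, Ces2c and Ces2e were called and the other 9 were not. Over all genes 5.04% were called higher with sevoflurane and 4.10% with desflurane. Ces1d, a triacylglycerol and drug hydrolase, was at 597 and 401 TPM with sevoflurane and at 586 and 605 TPM with desflurane, so that the sevoflurane 6 h liver was the low one, 1.49-fold below its control and short of the rule. Ces1c, a secreted esterase, was at 435 and 458 TPM with sevoflurane and at 542 and 554 TPM with desflurane. Ces1f was at 341 and 369 TPM with sevoflurane and at 423 and 440 TPM with desflurane. For Ces1c and Ces1f the 2 agents differed more than the 2 times did, with 1.24-fold between the controls for each. The 4 Ces1 genes span 253.4 kb of chromosome 19, and Ces1d and Ces1e overlap, so the split of their reads is uncertain.

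Ces2c, an acylcarnitine hydrolase, was at 10.4 and 39.2 TPM with sevoflurane and at 9.66 and 20.7 TPM with desflurane, the sum of 2 rows on chromosome 1 that rose alike. Both 6 h livers were above both controls, which differed by 1.07-fold. It was 3.78-fold higher with sevoflurane and 2.15-fold higher with desflurane, the latter just short of the rule when set against the sevoflurane control, and the common change was 1.42 ± 0.215 (SE, limma, adjusted p = 0.00105). Ces2e (chr19:85679-100386, plus strand), whose promoter is printed beside that of Ces2c, was at 1.66 and 10.1 TPM with sevoflurane and at 3.01 and 5.88 TPM with desflurane. It was 6.06-fold higher with sevoflurane and 1.95-fold higher with desflurane, the latter short of the rule, and the common change was 1.42 ± 0.296 (SE, limma, adjusted p = 0.00916). The size of these folds is uncertain: with exchanged controls they were 3.35-fold and 3.53-fold, after rescaling of the libraries the desflurane fold was 2.10, and the loci assembled from the reads gave 2.23-fold and 1.83-fold. The other 6 Ces genes, Ces1e, Ces2a, Ces2g, Ces2h, Ces2j and Ces4a, had folds between 0.832 and 1.14 (sevoflurane) and between 0.797 and 1.13 (desflurane). Of all 54 members Ces2h varied least, from 44.8 to 46.3 TPM, and it is named for that after its values were seen.

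The epoxide hydrolases differed from each other in level and in pattern. Ephx1, the microsomal form that opens epoxides of xenobiotics, was at 476 and 470 TPM with sevoflurane and at 568 and 619 TPM with desflurane. Ephx2, the soluble form that acts on epoxides of fatty acids, was at 11.5 and 12.4 TPM with sevoflurane and at 6.73 and 14.4 TPM with desflurane. The desflurane control was the low one of the 4 Ephx2 values. Ephx2 was 2.14-fold higher with desflurane against that control and 1.25-fold higher against the sevoflurane control, and the common change was 0.55 ± 0.239 (SE, limma, adjusted p = 0.222).

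The calls of the 2 agents were set side by side, since their comparisons share no library. Ces2c was higher with both and Adh7 was lower with both. Akr1c14 and Ces2e were called higher with sevoflurane and not with desflurane, and Adh1, Akr1d1, Akr1c1 and Fmo5 were called lower with sevoflurane and not with desflurane. Ephx2 and Fmo2 were called higher and Akr1c2 lower with desflurane and not with sevoflurane. Of these 9, Fmo5 had differences of opposite sign with the 2 agents, and the other 8 had the same sign. Fmo2 missed the call with sevoflurane only by the minimum, at 1.28 TPM. Its fold was 3.29 with sevoflurane and 2.73 with desflurane. Whether the agents differ was not tested, since each holds 1 library per time.

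Other enzymes of the first phase of drug metabolism were read beside the families. Of 36 genes listed, 34 were found. The rule called 2 of them higher under sevoflurane and 3 higher under desflurane, none lower, and 4 were found changed in the common test (limma). Over all genes 5.04% and 4.10% were higher and 3.71% and 5.55% lower, and 8.62% were called in the common test. Por, the reductase that feeds electrons to the cytochromes P450, was at 21.8 and 538 TPM with sevoflurane and at 28.6 and 386 TPM with desflurane (adjusted p = 6.72e-08, limma). Hsd17b2, which oxidizes sex steroids, was at 35.6 and 747 TPM with sevoflurane and at 134 and 578 TPM with desflurane, and its controls differed by 3.77-fold (adjusted p = 7.08e-05, limma). Within each agent these folds were larger than that of any of the 54 members. Rdh16, a retinol dehydrogenase, was 2.04-fold higher with desflurane and 1.74-fold higher with sevoflurane. Sord, the sorbitol dehydrogenase, was lower at 6 h in the common test (limma, adjusted p = 0.0436), at 241 and 200 TPM with sevoflurane and at 243 and 144 TPM with desflurane. Esd, an esterase, was 3.49-fold higher in the desflurane than in the sevoflurane control. The 3 most abundant of the list, Pon1, Cyb5a and Uox, were past no rule with either agent, with means of 1225, 982 and 571 TPM.

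Of 17 listed transcription factors and cofactors that are known to act on such genes, 16 were found. With sevoflurane 6 were higher (Nr1i2, Ahr, Ppara, Dbp, Tef and Ppargc1a) and 2 lower (Nfe2l2 and Nfil3). With desflurane 5 were higher (the same but Ahr) and 1 lower (Nfe2l2). Over all genes 5.04% and 4.10% were higher and 3.71% and 5.55% lower. Ahr was at 8.92 and 29.2 TPM with sevoflurane and at 20.6 and 37.9 TPM with desflurane. Its controls differed by 2.31-fold, past the rule. Nfe2l2, the factor of the antioxidant response, was at 78.6 and 31.2 TPM with sevoflurane and at 62.6 and 23.0 TPM with desflurane (limma, adjusted p = 9.46e-05). Nr1i2, the pregnane X receptor, was at 26.0 and 99.7 TPM with sevoflurane and at 34.1 and 90.9 TPM with desflurane (limma, adjusted p = 3.84e-05). Dbp, which binds the D-box and follows the circadian clock, was at 0.400 and 87.9 TPM with sevoflurane and at 1.92 and 44.8 TPM with desflurane (limma, adjusted p = 2.56e-06). The part of these factors, and of the hour of harvest that moves with them, in the levels of the enzymes was not tested. The 3 members with a D-box in the window searched, Ces1c, Ces1d and Ces1e, were past the rule with neither agent.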

How the data were processed

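Total RNA of 4 rat livers was sequenced, 1 library per group as the labels assign them. Per the labels, tissue kept in RNAlater was extracted with the RNeasy Midi kit and made into libraries with the TruSeq Stranded Total RNA Gold kit. The submitters' processing notes name HISAT2, SAMtools, StringTie and build rn6, without versions. Tables of StringTie layout, 1 per library, were deposited by the authors. Their TPM column was handled as a score: loci assembled from the reads sum to 1000000 by themselves, and the named genes deposited beside them add 0.766 to 0.789 of that again. FPKM and coverage (a depth signal per base), also deposited, served only for depth. Rows spanning at most 200 bp were dropped (17455 symbols became 16999) and the rows of a symbol were summed.

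A gene of these families is not reported here and enters no count of members. Members and lists were chosen with earlier results of these data known. Calls used a rule of size (TPM above 2, ratio above 2) and limma 3.58.1 (R 4.3.3) on log2(TPM + 1) with a mean trend, agent block and Benjamini-Hochberg adjustment at 0.05. On simulated data each recovered 200 of 200 changed genes, which were given little noise and changes well above the ratio of the rule. Changes near that ratio were not tried. With single samples per group, p-values measure only how the 2 agents spread around a common change. Named were the members called in any comparison or by limma and the 3 most abundant of each family (29 of 54), and from the other lists the called genes and, for enzymes, the 3 most abundant. RefSeq promoters (GRCr8) were aligned with Biopython 1.88 (match 1, mismatch -1, gap -3 to open, -1 to extend). Alternatives were the minimum, ratio and pseudocount, median-of-ratios scaling, the most abundant row of a symbol, exchanged controls, no agent block and each library left out. Assembled loci in place of named genes were added after seeing the data.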

Additional observations from a re-analysis of the deposited data

Results flagged for a closer look

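For Akr7a3 and Fmo5 the 6 h minus 0 h differences had opposite signs with the 2 agents and lay over 1 apart on the log2 scale. The difference of Akr7a3 with desflurane exceeded that with sevoflurane by 1.27, and that of Fmo5 by 1.02. Of the 4 differences, that of Fmo5 with sevoflurane alone passed the rule of size. Each is a difference of 2 single libraries, and the gap between agents was not tested.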

How the results depend on the processing

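The count of members lower with sevoflurane was 2 at a ratio above 3 and 8 with exchanged controls, instead of 5. The count higher with desflurane was 0 at a ratio above 3 and 5 after median-of-ratios scaling instead of 3, and the count lower with desflurane was 0 at that ratio and 1 after that scaling, instead of 2. The count between the 6 h livers was 1 at a ratio above 3 instead of 4. With a gap ratio above 1.5, 3 members had both 6 h values above both 0 h values instead of 12, and 2 had both below instead of 14. The median log2 change was -0.0833 for sevoflurane with exchanged controls and 0.111 with desflurane after scaling. The median log2 difference of all genes between the controls was 0.11 and became 0.00 after scaling. Leaving out 1 library at a time, limma called 1 to 9 members instead of 8, with 1 without sevoflurane 0 h, 4 without sevoflurane 6 h, 4 without desflurane 0 h and 9 without desflurane 6 h. Those fits had no agent block. With all 4 libraries and no agent block limma called 6, which is the count to set them against. An arm with 1 library left is assumed to vary like the others. The labels number no replicates. With the assembled loci, chosen after seeing the data, sevoflurane gave 4 higher and 5 lower members, and desflurane gave 3 and 3. Of 44 members with loci of their own in all libraries, 26 agreed within 10% of the named gene in all 4, and Ces1c, Ces1d, Ces1e and Ces1f were not among the 44. For the single called members, all 13 changes kept their sign in every setting run, but a higher minimum or ratio cannot alter a sign. Of these 13 calls, 9 were lost at a ratio above 3 and 4 with exchanged controls. After median-of-ratios scaling 1 was lost, and at a minimum TPM of 5 also 1. Depth limits the members under 10 TPM most, of which there are 13.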
